A study of Mus musculus with 4 samples.

Results

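The genes described here encode proteins of the acrosome and of the sperm surface that take part in fertilization. They are Acr, Acrbp, Acrv1, Spaca3, Spaca4, Spaca1, Zpbp, Zpbp2, Spam1 and Izumo1. They were selected by gene symbol, with no measured value in the rule, but with earlier results of these data known. All 10 were found among the 23980 genes of the table. PolyA(+) RNA of leptotene/zygotene (L/Z) spermatocytes, germ cells in early meiotic prophase, was sequenced in 4 libraries. The cells were sorted by fluorescence-activated cell sorting (FACS) from testes 3 to 4 weeks after birth. All mice were F1 hybrids of C57BL6/J and MSM/Ms. The comparison made here asks how the RNA levels of these genes differ after loss of Pld6 or of Dnmt3l. The study used F1 hybrids to learn which allele of activated RefSeq genes is expressed. Its own comparison of transcriptomes rests on other L/Z libraries, with biological replicates. Pld6 is needed to make piRNAs, and Dnmt3l helps to set DNA methylation in male germ cells.

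The Dnmt3L line gave a heterozygous control library (Dnmt3L Het) and a knockout library (Dnmt3L KO), and the Pld6 line gave a wild-type control (Pld6 WT) and a knockout (Pld6 KO). Dnmt3L Het is a control that itself carries 1 mutant allele. Each genotype had 1 library, so no value within a line has a replicate check. How many animals went into a library is not given in the sources used here. Germ cells of both knockouts are lost around zygotene, as is known from earlier work, so knockout testes lack the later germ cells that a control testis of this age holds.

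The acrosome is a Golgi-derived vesicle that caps the sperm nucleus. It is built in spermatids and holds enzymes and binding proteins that are released or exposed when the sperm meets the egg coat, the zona pellucida. Transcripts of several acrosomal proteins are known to appear before meiosis ends, in spermatocytes, ahead of the organelle itself. Fusion of the sperm and egg membranes is a separate step and needs Izumo1, which binds a receptor on the egg.

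The libraries held from 30439943 fragments in genes (Pld6 KO) to 63875934 (Dnmt3L Het), and an undetected gene may still hold up to 3 fragments. The 19 L/Z spermatocyte markers summed to 2233 FPKM (fragments scaled to transcript length and library depth) in Dnmt3L Het, 3725 in Pld6 WT, 1330 in Dnmt3L KO and 2203 in Pld6 KO, and none was at 0 in any library. The same held for all markers of Sertoli cells, Leydig cells, spermatogonia and pachytene spermatocytes, so detection alone does not tell these cells apart. The 16 spermatid markers summed to 8046 in Dnmt3L Het, 366 in Pld6 WT, 64.9 in Dnmt3L KO and 52.2 in Pld6 KO. The 16 Sertoli cell markers summed to 6250, 189.7, 8213 and 544 FPKM in the same order. The Sertoli sum was above the L/Z sum in both Dnmt3L libraries and below it in both Pld6 libraries. The lists differ in size, and a few abundant genes can carry a sum. The median Sertoli marker was at 47.25 FPKM in Dnmt3L Het, below the median L/Z marker at 69.85. In Dnmt3L KO these medians were 60.4 and 53.0, in Pld6 WT 2.14 and 162, and in Pld6 KO 7.97 and 99.6. Dnmt3L Het thus stood apart from Pld6 WT in the spermatid and Sertoli lists, and values are given below for each line on its own. Fewer cells of a type and less RNA per cell cannot be told apart in such libraries.

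All 10 genes were higher in both control libraries than in both knockout libraries. Genes of this kind made up 20.7% of the 14416 genes with a mean of at least 1 FPKM. The median level of the 10 genes was 19.4 FPKM in Dnmt3L Het and 14.1 FPKM in Pld6 WT. It was 0.392 FPKM in Dnmt3L KO and 0.614 FPKM in Pld6 KO. The genes did not lose the same amount. Spaca3 and Spaca4 had no fragment in either knockout, beside 369 of the 14416 genes. In contrast, Acrbp, Spaca1, Zpbp and Izumo1 kept more than 5% of the level of the control of their line in both.

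**Figure D1:**
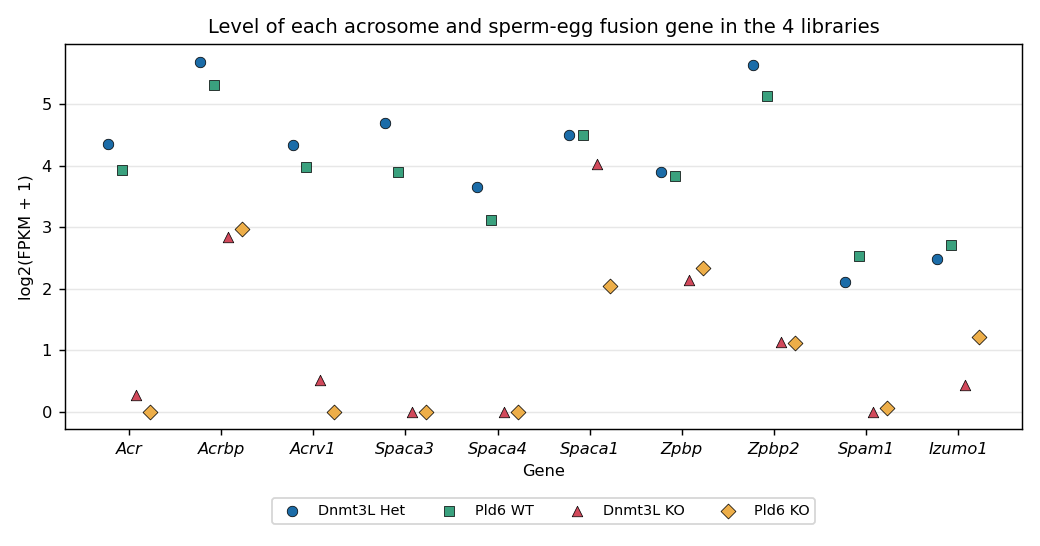
Level of each of the 10 genes, as log2(FPKM + 1), in the 4 libraries; each point is 1 library and there are no error bars because each genotype had 1 library. The 2 control points lie above the 2 knockout points for every gene, and the knockout points of Spaca3 and Spaca4 lie at 0.

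The start regions of 4 of the 10 genes are shown. Spaca3, Spaca4 and Spaca1 were taken from the ends of this range, and Izumo1 from within it for its role and its motif. Spaca3 and Spaca4 were undetected in both knockouts, Spaca1 kept most in Dnmt3L KO, and Izumo1 is the fusion protein and has the one full cAMP response element (CRE) found. Each sequence runs 5′ to 3′ on the strand of the gene, from 250 bases before to 50 bases after the start of transcription, from RefSeq on GRCm38.p6. Capitals mark TGACG, the core of the CRE, or the full CRE TGACGTCA, read on either strand. These elements are bound by CREM, a known regulator of spermatid genes.
Izumo1, chr7:45621561-45621860, plus strand: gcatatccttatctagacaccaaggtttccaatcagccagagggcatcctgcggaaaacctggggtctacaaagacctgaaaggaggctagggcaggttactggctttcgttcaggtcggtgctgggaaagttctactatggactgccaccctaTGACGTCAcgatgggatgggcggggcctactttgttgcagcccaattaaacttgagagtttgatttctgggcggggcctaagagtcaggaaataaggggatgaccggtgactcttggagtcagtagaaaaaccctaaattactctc
Spaca1, chr4:34050016-34050315, minus strand: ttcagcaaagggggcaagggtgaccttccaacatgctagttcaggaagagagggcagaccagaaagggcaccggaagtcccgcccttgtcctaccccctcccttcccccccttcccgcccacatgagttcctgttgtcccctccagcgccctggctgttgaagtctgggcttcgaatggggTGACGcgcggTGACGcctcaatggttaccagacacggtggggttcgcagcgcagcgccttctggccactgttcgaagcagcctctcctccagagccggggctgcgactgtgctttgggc
Spaca3, chr11:80858113-80858412, plus strand: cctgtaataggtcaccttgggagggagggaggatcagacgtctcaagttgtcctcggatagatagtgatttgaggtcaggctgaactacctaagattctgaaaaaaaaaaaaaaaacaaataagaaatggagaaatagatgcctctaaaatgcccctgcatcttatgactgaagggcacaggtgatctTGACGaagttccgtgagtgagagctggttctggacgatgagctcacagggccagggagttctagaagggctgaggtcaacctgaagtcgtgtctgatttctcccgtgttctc
Spaca4, chr7:45725767-45726066, minus strand: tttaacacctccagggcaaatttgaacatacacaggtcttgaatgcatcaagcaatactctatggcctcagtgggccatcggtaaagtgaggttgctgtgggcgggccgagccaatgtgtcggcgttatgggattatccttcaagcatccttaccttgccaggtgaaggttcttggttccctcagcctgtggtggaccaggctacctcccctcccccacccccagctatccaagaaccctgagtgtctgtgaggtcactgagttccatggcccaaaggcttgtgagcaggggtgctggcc

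The start region of Izumo1 held the full CRE at bases -96 to -89, counted from the start of transcription. Spaca1 held the CRE core at -69 to -65 and again at -59 to -55, and Spaca3 held it at -62 to -58. No TGACG was found in the window of Spaca4. Of the 9 start regions in the RefSeq table (Acr had none), 5 held TGACG, which is 55.6%, beside 21.0% of 27025 start regions of all genes. The other ones were those of Acrbp and Zpbp2. The full CRE, which contains that core on both strands, was in 1 of 9 (11.1%) beside 1.88% of all. The core was present in 3 of the 4 genes that kept more than 5% of their control in both knockouts (Acrbp, Spaca1 and Izumo1, but not Zpbp). It was present in 2 of the other 5 (Spaca3 and Zpbp2, but not Acrv1, Spaca4 or Spam1). The window of Zpbp (11462370 to 11462669, minus strand) lies inside the gene, which reaches to 11464223. The outer 5′ end of Zpbp was thus not searched.

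Further motifs were looked for on both strands. GTTGCC, bound by RFX factors, was found in Acrbp alone, beside 12.7% of all start regions. TAACNG, the MYB motif, was found in Spam1 alone, beside 23.2%. TATAAA was found in none of the 9, beside 14.2%. CpG dinucleotides, which can carry DNA methylation, numbered from 0 (Spam1) to 26 (Zpbp2) per start region, with a median of 7 both for the 9 genes and for all genes. Spaca1 had 16, Izumo1 had 8, Spaca3 had 7 and Spaca4 had 5. DNA methylation of these regions was not analysed here.

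The contents of the acrosome come first. Acr (chromosome 15, 89568326 to 89578853, 5 exons) encodes acrosin, the serine protease of the acrosome. It stood at 19.6 FPKM in Dnmt3L Het, 14.2 in Pld6 WT, 0.215 in Dnmt3L KO and 0 in Pld6 KO. Behind these values were 1641, 740, 12 and 0 fragments. Acr was thus abundant in both controls and close to absent in both knockouts. Fragments per total in Dnmt3L KO were 0.935% of Dnmt3L Het (95% exact counting interval 0.482 to 1.64%). With 0 fragments in Pld6 KO, taken as at most 3, Acr was at least 185-fold lower than in Pld6 WT. The exact interval gave a smaller limit of 150-fold. It was likewise smaller than the limit from 3 fragments for the other undetected genes. Such intervals and limits cover counting error only.

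Acrbp (chromosome 6, 125049927 to 125063265, 10 exons) encodes the protein that binds proacrosin and holds it in its inactive form. Its level was 50.9 FPKM in Dnmt3L Het, 38.9 in Pld6 WT, 6.15 in Dnmt3L KO and 6.87 in Pld6 KO. It was the highest of the 10 genes in both controls and in Pld6 KO. What was left was 11.3% of the control in Dnmt3L KO (10.1 to 12.6%) and 17.7% in Pld6 KO (15.5 to 20.2%). The gene for acrosin and the gene for its binding protein thus parted in the knockouts, where Acrbp was still read by 349 and 250 fragments.

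Acrv1 (chromosome 9, 36693220 to 36698845, 4 exons) encodes SP-10, a protein of the acrosomal matrix. It measured 19.3 FPKM in Dnmt3L Het, 14.8 in Pld6 WT, 0.425 in Dnmt3L KO and 0 in Pld6 KO. Its level was close to that of Acr in both controls and in Pld6 KO. Dnmt3L KO kept 2.06% (1.21 to 3.26%) from 18 fragments, and Pld6 KO was at least 135-fold lower than Pld6 WT. Spaca3 (chromosome 11, 80858363 to 80867814, 6 exons) encodes a lysozyme-like acrosomal protein. It was at 24.9 FPKM in Dnmt3L Het (988 fragments), 13.9 in Pld6 WT (347 fragments) and 0 in both knockouts. It was at least 257-fold lower in Dnmt3L KO and at least 86.8-fold lower in Pld6 KO. Spaca3 also differed more between the controls than any other of the 10, by 1.79-fold.

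The next genes encode proteins of the acrosomal membrane or of the contact with the zona pellucida. Spaca1 (chromosome 4, 34024872 to 34050067, 7 exons) encodes a protein of the inner acrosomal membrane that is needed to shape the organelle. Its level was 21.7 FPKM in both Dnmt3L Het and Pld6 WT, 15.3 in Dnmt3L KO and 3.15 in Pld6 KO. Unlike the other 9 genes, Spaca1 stayed within 2-fold of its control in Dnmt3L KO, at 67.0% (60.8 to 73.7%) from 656 fragments. In Pld6 KO it was at 15.8% (12.6 to 19.6%) from 93 fragments. Of the 14416 genes, 237 (1.64%) had this pattern of over 2-fold lower in Pld6 KO and within 2-fold in Dnmt3L KO.

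Spaca1 was 4.87-fold higher in FPKM in Dnmt3L KO than in Pld6 KO. On fragments per total that ratio was 4.30 (3.46 to 5.40). It is a difference between single libraries. The ratio of the summed markers between these libraries was 15.1 for Sertoli cells, 1.24 for spermatids and 0.905 for pachytene spermatocytes, and their part in the difference of Spaca1 was not tested. The nearest neighbours of Spaca1 on the chromosome were Cnr1 (0.223, 0.105, 0.102 and 0.782 FPKM in Dnmt3L Het, Pld6 WT, Dnmt3L KO and Pld6 KO) and Akirin2 (57.8, 61.2, 44.4 and 50.8 FPKM). Neither was raised in Dnmt3L KO above its control.

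Spaca4 (chromosome 7, 45725107 to 45725816, 1 exon) encodes a small lipid-anchored surface protein of the sperm head. It measured 11.6 FPKM in Dnmt3L Het (383 fragments), 7.69 in Pld6 WT (159 fragments) and 0 in both knockouts. It was at least 99.8-fold lower in Dnmt3L KO and at least 39.8-fold lower in Pld6 KO. The whole gene lies on the minus strand inside an intron of Fam83e (45723979 to 45726631), which is on the plus strand. Fam83e was at 1.91, 0.983, 0 and 0.222 FPKM in Dnmt3L Het, Pld6 WT, Dnmt3L KO and Pld6 KO. The library kit keeps the strand, but whether the counting used it is not given in the sources used here, so reads of these overlapping genes may not be fully separated.

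Zpbp (chromosome 11, 11279624 to 11464223, 8 exons) and Zpbp2 (chromosome 11, 98551097 to 98558665, 7 exons) encode related zona pellucida binding proteins of the acrosome. Zpbp was at 13.9 FPKM in Dnmt3L Het, 13.2 in Pld6 WT, 3.41 in Dnmt3L KO and 4.08 in Pld6 KO. Zpbp2 was at 48.8, 34.3, 1.19 and 1.18 FPKM in the same order. In FPKM the relatives thus changed rank: Zpbp2 was the higher of the pair in both controls and the lower in both knockouts. The control rank depends on the scaling to transcript length. Fragments of Zpbp and Zpbp2 were 3183 and 3874 in Dnmt3L Het but 1920 and 1747 in Pld6 WT. They were 569 and 76 in Dnmt3L KO and 454 and 46 in Pld6 KO. The ratio of Zpbp2 to Zpbp in FPKM was 3.52 in Dnmt3L Het and 2.59 in Pld6 WT, but 0.349 in Dnmt3L KO and 0.289 in Pld6 KO.

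Zpbp kept 22.9% of its control in Dnmt3L KO (20.9 to 25.0%) and 31.5% in Pld6 KO (28.4 to 34.9%), the largest share left among the 10 genes in Pld6 KO. Zpbp2 kept 2.51% (1.97 to 3.15%) and 3.51% (2.56 to 4.70%). The 5′ end of Zpbp overlaps Spata48 on the opposite strand, listed in the table as 4930415F15Rik, at 6.04, 2.81, 0.804 and 0 FPKM in Dnmt3L Het, Pld6 WT, Dnmt3L KO and Pld6 KO.

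Spam1 (chromosome 6, 24791188 to 24801048, 4 exons) encodes PH-20, a hyaluronidase of the sperm surface and the acrosome. It was at 3.31 FPKM in Dnmt3L Het (410 fragments), 4.80 in Pld6 WT (372 fragments) and 0.0496 in Pld6 KO (3 fragments), and was undetected in Dnmt3L KO. It was the lowest of the 10 genes in both controls. Dnmt3L KO was at least 107-fold lower than its control, and the 3 fragments of Pld6 KO came to 1.07% of Pld6 WT (0.221 to 3.16%). The neighbouring hyaluronidase gene Hyal5, 56889 bases away, stood at 4.57, 4.81, 0 and 0 FPKM in Dnmt3L Het, Pld6 WT, Dnmt3L KO and Pld6 KO. Spam1 and Hyal5 are relatives, and how reads shared by both were counted is not given in the sources used here.

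Izumo1 (chromosome 7, 45621811 to 45627242, 10 exons) encodes the sperm protein that binds the egg receptor before fusion. It was at 4.62 FPKM in Dnmt3L Het (387 fragments), 5.57 in Pld6 WT (293), 0.360 in Dnmt3L KO (22) and 1.32 in Pld6 KO (54). Izumo1 kept 7.27% of its control in Dnmt3L KO (4.50 to 11.2%) and 24.5% in Pld6 KO (18.0 to 32.9%). These intervals do not overlap. Together with Spam1 it was one of the lowest genes of the group in the controls, and yet it was among those with the most left in Pld6 KO. Its low level in the controls thus did not go with complete loss in the knockouts.

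**Figure D2:**
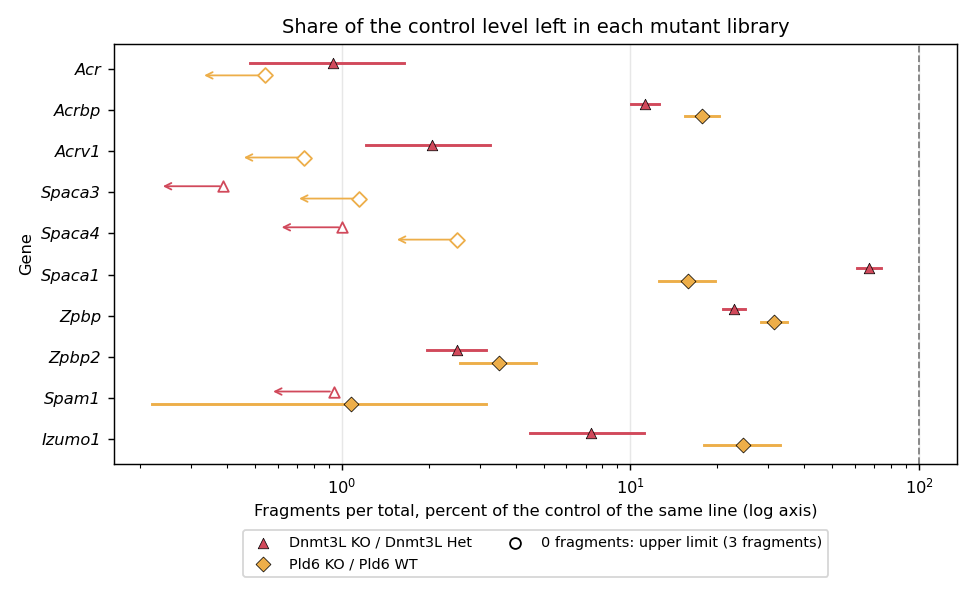
Share of the control level left in each knockout, as fragments per total in percent of the control of the same line, on a log axis; filled points carry 95% exact counting intervals and open points with arrows are upper limits from 3 fragments. Spaca1 in Dnmt3L KO, at 67.0%, lies farthest to the right, and Spaca3 and Spaca4 have open points in both knockouts.

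Over the 10 genes, the Pld6 knockout compared with its wild type gave a drop of over 2-fold in FPKM + 1 for 10 genes, beside 9.95% of the 14416 genes. The Dnmt3L knockout compared with its heterozygote gave such a drop for 9, beside 12.0%. The median difference in log2(FPKM + 1) over the 10 genes came to -2.79 with Pld6 KO and to -3.26 with Dnmt3L KO. Over all 14416 genes it was 0.01 and 0.06. This scale understates losses of genes with low levels. On fragments, with undetected genes set at 3 fragments, the medians of the 10 genes were -5.19 and -5.36. The spermatid markers had medians of -3.10 (Pld6 KO) and -6.18 (Dnmt3L KO), with 15 and 16 of 16 over 2-fold lower, and 2 and 5 of 16 at 0. The pachytene spermatocyte markers had medians of -1.84 and -2.47, with 10 and 12 of 16 over 2-fold lower. Somatic markers went the other way in Pld6 KO, with a median of 1.78 and 8 of 9 over 2-fold higher for Leydig cells and a median of 1.14 and 10 of 16 for Sertoli cells. In Dnmt3L KO these medians were -0.01 and 0.57, with 2 of 9 and 2 of 16 over 2-fold higher. The part of other cell types in these differences was not tested.

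When both knockouts were set against both controls in edgeR's quasi-likelihood test, 0 of the 10 genes passed at an adjusted p of 0.05, beside 0% of the 17686 genes tested. These classes mix genotypes and lines. Without adjustment, 9 of the 10 genes and 1548 genes in all were lower at a p under 0.05, and DESeq2 called 8 of the 10 lower after adjustment, beside 6.63% of genes. The fitted log2 change was -5.09 ± 0.50 (SE) for Zpbp2 (edgeR adjusted p = 0.0877), -2.84 ± 0.43 for Acrbp (0.0896) and -1.90 ± 0.40 for Zpbp (0.151). For the 5 genes with an undetected knockout library the fitted change depends on the prior count, and edgeR adjusted p ran from 0.0877 (Spaca3) to 0.220 (Acrv1). The fitted change of Izumo1 was -2.65 ± 0.87 (edgeR adjusted p = 0.371) and that of Spaca1 -1.22 ± 0.84 (edgeR adjusted p = 0.953). Spaca1 thus had the smallest change relative to its error.

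With the line as a block, 8 of the 10 genes were called lower, beside 5.98% of genes. This fit gives each line its own level and estimates 1 knockout effect shared by both lines. With 4 libraries it leaves little from which to estimate error, and a call does not stand for either line on its own. Under this edgeR fit adjusted p was 0.00063 for Zpbp2, 0.00243 for Acrbp and 0.00926 for Zpbp. The 2 that were not called were Izumo1, at -2.89 ± 0.71 (edgeR adjusted p = 0.0605), and Spaca1, at -1.60 ± 0.61 (edgeR adjusted p = 0.205). Izumo1 and Spaca1 are also the 2 genes whose levels differed most between the knockouts among the 4 that kept over 5%. Whether the libraries of a line were sorted together is not given in the sources used here.

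The knockouts, which share no control, were then compared with each other. Spaca1 was the one gene of the 10 over 2-fold higher in FPKM + 1 in Dnmt3L KO, beside 14.8% of genes, and none was over 2-fold lower, beside 6.51%. By counting, 8 genes had fragments in at least 1 knockout. For 3 of these the interval of the ratio lay above 1 (Spaca1, Acr and Acrv1) and for 2 below 1. The latter were Izumo1, with a ratio of 0.248 (0.144 to 0.415) on fragments per total, and Zpbp, with 0.764 (0.674 to 0.866). Acrbp (0.721 to 1.01), Zpbp2 (0.689 to 1.49) and Spam1 (up to 1.48) had intervals that hold 1. The median log2 difference over the 10 genes was 0.00, but single genes went both ways.

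The make-up of the summed level changed with genotype. The 10 genes summed to 219 FPKM in Dnmt3L Het, 169 in Pld6 WT, 27.1 in Dnmt3L KO and 16.6 in Pld6 KO. In the controls Acrbp and Zpbp2 led, with 23.3 and 22.3% of the sum in Dnmt3L Het and 23.0 and 20.3% in Pld6 WT. In Dnmt3L KO, Spaca1 alone gave 56.6% of the sum. In Pld6 KO, Acrbp gave 41.3%, Zpbp 24.5% and Spaca1 18.9%. The ratio of Spaca1 to Acrbp in FPKM was 0.425 in Dnmt3L Het, 0.559 in Pld6 WT and 0.458 in Pld6 KO, and stood apart in Dnmt3L KO at 2.49.

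**Figure D3:**
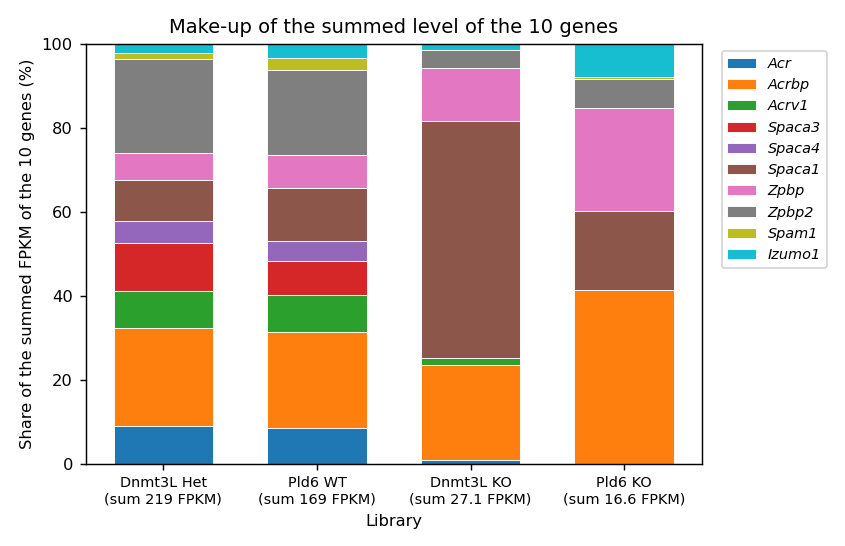
Share of the summed FPKM of the 10 genes taken by each gene, in percent, with 1 bar for each library and its sum under the bar. The bars of the controls are alike, whereas Spaca1 takes 56.6% in Dnmt3L KO and Acrbp takes 41.3% in Pld6 KO.

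Between the controls, 0 of the 10 genes were over 2-fold higher in Dnmt3L Het than in Pld6 WT, beside 17.6% of genes. The median difference in log2(FPKM + 1) was 0.37, beside 0.06 over all genes. The difference was positive for 7 of the 10. The largest ratios of FPKM were those of Spaca3 (1.79), Spaca4 (1.51) and Zpbp2 (1.42). Spaca1 (0.997) and Zpbp (1.05) had counting intervals that hold 1, and Spam1 (0.691) and Izumo1 (0.828) were higher in Pld6 WT. The summed spermatid markers were 22.0-fold higher in Dnmt3L Het, with a median difference of 2.73 over 16 genes. Pachytene spermatocyte markers differed by a median of 0.45 over 16 genes, close to that of the 10 genes. The medians were 3.83 for Sertoli markers, 2.92 for Leydig markers, -0.26 for spermatogonial markers and -0.89 for L/Z markers.

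**Figure D4:**
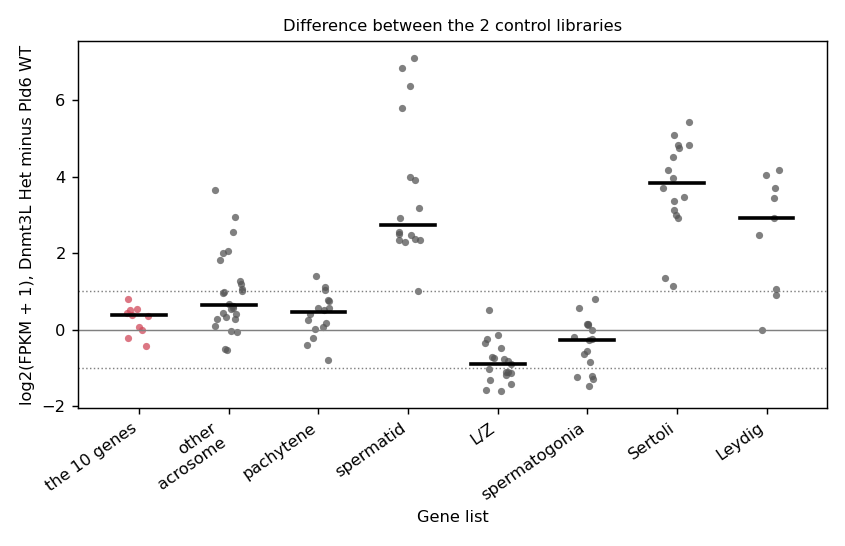
Difference between the 2 control libraries, Dnmt3L Het minus Pld6 WT, in log2(FPKM + 1), with 1 point per gene and a bar at the median of each list; dotted lines mark 2-fold. The 10 genes lie within the dotted lines with a median of 0.37, whereas the spermatid markers have a median of 2.73 and the Sertoli markers one of 3.83.

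A further list held 26 genes, mostly for proteins of the acrosome, the sperm head or the germ cell surface. Of these, 25 were lower in both knockouts than in both controls, beside 20.7% of the 14416 genes. No fragment was found in either knockout for 11 of them, beside 369 of the 14416 genes. The median difference of these 26 in log2(FPKM + 1) came to -2.53 with Pld6 KO and to -3.66 with Dnmt3L KO. None was called by edgeR without the block and 21 were called lower with it, beside 5.98% of genes. Its gene of lowest mean level was Zan, for the zona-binding protein zonadhesin, at 0.364, 0.965, 0.161 and 0.0930 FPKM in Dnmt3L Het, Pld6 WT, Dnmt3L KO and Pld6 KO. Its gene of highest mean level was Tex101, a germ cell surface glycoprotein, at 821, 1163, 370 and 634 FPKM. Actl7b, an actin-like protein of the sperm head, had the largest drop, from 56.6 and 38.7 FPKM in the controls to 0 in Dnmt3L KO and 0.414 in Pld6 KO. The exception was Papl, now called Acp7, at 8.57, 0.642, 20.8 and 2.29 FPKM. Its order over the libraries was that of the summed Sertoli markers and also that of the summed Leydig markers. Which cells it came from was not tested.

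A list of genes known for sperm-egg fusion or related to Izumo1 held 8 measured genes. Of these, 7 were over 2-fold lower in Pld6 KO and 5 in Dnmt3L KO, beside 9.95% and 12.0% of the 14416 genes. A role in fusion is not established for every relative of Izumo1 in the list. With the block, 4 of the 7 tested were called lower by edgeR, beside 5.98% of genes, and without it none was. 1700034O15Rik, now called Llcfc1 and needed for fusion, was at 38.5, 17.6, 0.0783 and 0 FPKM in Dnmt3L Het, Pld6 WT, Dnmt3L KO and Pld6 KO. Tmem81, a partner of Izumo1 in the fusion complex, was at 2.54, 1.99, 2.75 and 1.56 FPKM and did not part by genotype class. Tmem95 was seen in Pld6 WT alone, at 2.39 FPKM from 32 fragments, so it could not fall in the Dnmt3L line.

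Genes for building the acrosome, by Golgi traffic and nuclear attachment, differed less by median. Of 15 such genes 5 were over 2-fold lower in Pld6 KO and 6 in Dnmt3L KO, beside 9.95% and 12.0% of the 14416 genes. Their medians were -0.38 and -0.32. With the block 4 were called lower by edgeR, beside 5.98% of genes, and none without it. Spata16, a Golgi protein of the forming acrosome, was at 40.6, 31.8, 0.118 and 0.196 FPKM in Dnmt3L Het, Pld6 WT, Dnmt3L KO and Pld6 KO. Sun3, of the nuclear envelope, was at 9.50, 5.26, 0.0704 and 1.19 FPKM. Hook1, a transport adaptor, was at 31.2, 57.1, 27.2 and 43.8 FPKM. Atg7, of the autophagy machinery, was at 9.24, 10.4, 10.4 and 11.4 FPKM. By their medians, the 10 genes were thus nearer to the 26 further genes above than to these 15. The 15 were far from uniform, however. Their differences ran from -5.22 to 0.33 in Dnmt3L KO and from -4.78 to 0.11 in Pld6 KO.

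Of 5 egg genes, none was over 2-fold lower in either knockout. Zp1, Zp2 and Folr4 were under 1 FPKM in both controls, so a drop of over 2-fold in FPKM + 1 was not possible for them. Folr4, now called Izumo1r, the egg receptor of Izumo1, was at 0, 0.111, 0.590 and 0.626 FPKM from 0, 5, 31 and 22 fragments in Dnmt3L Het, Pld6 WT, Dnmt3L KO and Pld6 KO. Its edgeR adjusted p was 0.798, and 0.380 with the block. Zp1 and Zp2, of the egg coat, were under 0.2 FPKM in every library, from at most 19 fragments. The tetraspanin Cd9, which the egg needs for fusion and many cells express, was at 30.7, 29.0, 28.2 and 43.1 FPKM.

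**Figure D5:**
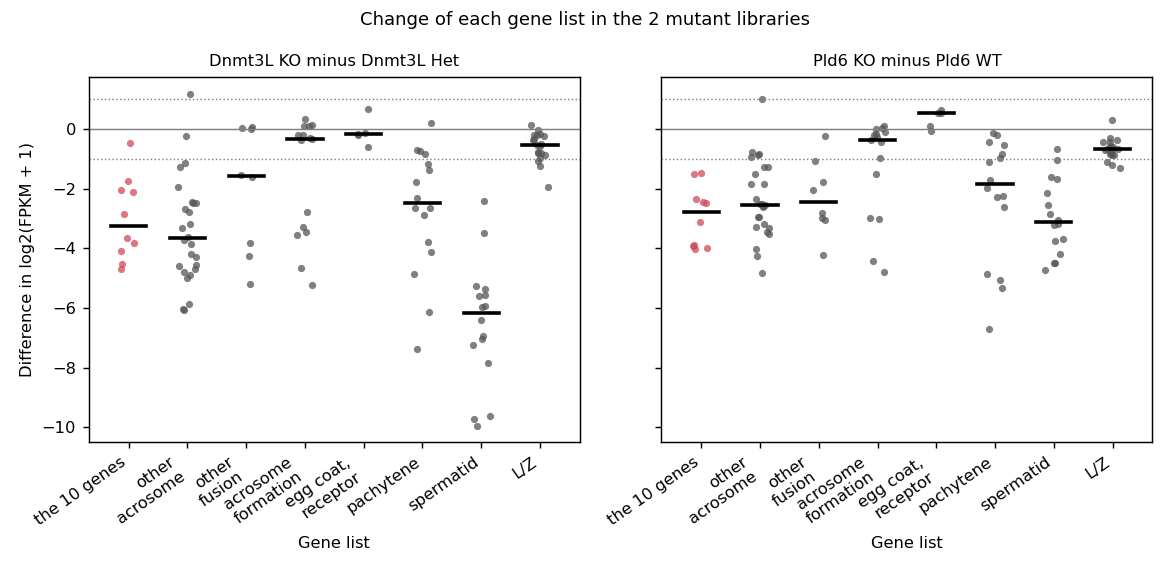
Difference between each knockout and the control of its line in log2(FPKM + 1), with 1 point per gene and a bar at the median of each list; dotted lines mark 2-fold. The 10 genes have medians of -3.26 (Dnmt3L KO) and -2.79 (Pld6 KO), and the L/Z markers have medians of -0.52 and -0.68.

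Of the 20 genes nearest to the 10, 1 on each side without the overlapping ones, 2 were over 2-fold lower in Pld6 KO and 1 in Dnmt3L KO, beside 9.95% and 12.0% of genes, with medians of -0.12 and -0.20. Of the 20, 7 were lower in both knockouts than in both controls, beside 20.7%. These shares cover genes with a mean of at least 1 FPKM, whereas the 20 were not filtered by level. Some of the 20, such as Fut1 and Vwc2, were under 1 FPKM in both controls and could not fall over 2-fold in FPKM + 1. The sets are thus unlike. The neighbours over 2-fold lower in Pld6 KO were Hyal5 next to Spam1 and 1700027I24Rik next to Acrv1, and in Dnmt3L KO it was Hyal5. Izumo1 lies 295 bases from Rasip1, which was at 3.79, 5.33, 2.32 and 4.82 FPKM in Dnmt3L Het, Pld6 WT, Dnmt3L KO and Pld6 KO. Acrbp lies 662 bases from Ing4, at 24.2, 9.94, 36.1 and 16.2 FPKM. Ing4 was higher in each knockout than in its control while Acrbp was lower in both.

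The genes whose levels over the 4 libraries were most like the mean pattern of the 10 were Btbd16, 4930430A15Rik, Gm20854, Ccdc178 and Pdilt. Their distance from it was 0.13 to 0.17 on the centred log2(FPKM + 1) scale. Among the 10 genes themselves, Acrbp was nearest to that mean, at 0.43, and Spaca1 farthest, at 1.98. Btbd16 was at 9.01, 6.66, 0.118 and 0.0293 FPKM and Pdilt at 8.19, 7.00, 0.0109 and 0 FPKM in Dnmt3L Het, Pld6 WT, Dnmt3L KO and Pld6 KO. With 4 libraries many genes share such a pattern.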

How the data were processed

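PolyA(+) RNA of sorted L/Z spermatocytes was measured in 4 libraries, 1 for each genotype, made with a stranded kit and read from 1 end. The authors used TopHat2 for alignment and Cuffdiff for the levels of RefSeq genes. Their versions are not given in the sources used here, and the build was taken to be mm10. For each gene and library the deposited table gives an estimated count of fragments and an FPKM value, which the authors' tool scaled to transcript length and depth. Other columns (scaled fragments, status) were not used, except that no value of the 10 genes was marked as failed. The fragment totals exceed the read numbers the study gives for its L/Z libraries, so counting intervals may be too narrow.

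The 10 genes and the lists were chosen with earlier results of these data known. Symbols or older symbols gave positions from RefSeq on GRCm38.p6 (mm10) for all 10, and the Fam83e intron came from GENCODE M21. A gene was counted as over 2-fold apart on FPKM + 1, against the control of its line, with no test. Exact 95% intervals of fragments per total cover counting error only, and 3 fragments is the limit set for an undetected gene. Fragments were rounded to whole numbers for edgeR 4.0.16 (quasi-likelihood test, TMM, filterByExpr, Benjamini-Hochberg at 0.05), with both knockouts against both controls. Its SE is the log2 change over the square root of F. DESeq2 1.42.0, RLE factors, no filter, line as a block, each library left out, a pseudocount of 0.1, fragments in place of FPKM, a threshold of 3-fold and the control of the other line were alternatives. All 10 genes are named, and of each other list the genes of highest and lowest mean FPKM and of most positive and most negative difference.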

Additional observations from a re-analysis of the deposited data

How the results depend on the processing

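With both knockouts against both controls, edgeR called 0 of the 10 genes lower with TMM, with RLE factors and with each library left out (0 to 0), 3 with no filter (Spaca3, Spaca4 and Zpbp2), 8 with DESeq2 and 8 with the line as a block. Over all genes edgeR called 0 higher and 0 lower, 2 and 375 with no filter, 32 and 1172 with DESeq2, and 131 and 1058 with the block. The fitted change of each of the 10 genes stayed negative in all of these. That of Spaca1 was -2.77 without Dnmt3L KO and -0.53 without Pld6 KO. The count of genes over 2-fold lower was 10 in Pld6 KO, 8 at a threshold of 3-fold and 10 in the other alternatives, and 9 in Dnmt3L KO in all of them. The median change in Pld6 KO, -2.79, was -4.89 with a pseudocount of 0.1, -5.19 on fragments and -3.19 against Dnmt3L Het. That in Dnmt3L KO, -3.26, was -5.15, -5.36 and, against Pld6 WT, -2.83. The smaller pseudocount and the fragments shrink low values less by construction. With 1 library per genotype, the spread between animals of a genotype could not be measured, and a gene with 0 fragments may still hold up to 3.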
